A study of Homo sapiens with 4 samples.

Results

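Sunitinib added to dihydroberberine was read as the difference between 2 arrays, the array of A549 cells given both drugs minus the array of A549 cells given dihydroberberine. A549 is an established human lung adenocarcinoma line. Both of these cultures had received 25 μmol/L dihydroberberine for 48 h, and the culture given both drugs, called the combination here, also received 2 μmol/L sunitinib. The other arrays of the study were untreated cells and cells given 2 μmol/L sunitinib for 48 h. Each condition held 1 array, so no difference could be tested, and the precision of every value is limited by this number of arrays. "Higher" and "lower" compare single arrays. The probe set with the highest mean over the 4 arrays stood for each gene, and genes were kept where the combination or the dihydroberberine array lay at or above log2 6.75, the median of all gene probe sets. This kept 10773 of 18132 genes. The last gene inside was CDKN2A, with log2 signals of 6.64 for the combination and 6.75 for dihydroberberine, and the first outside was RAB42, with 6.75 and 6.68. The floor compares signals and is not a limit of detection.

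Dihydroberberine is the reduced relative of berberine, a plant alkaloid known to inhibit mitochondrial complex I and to activate the energy sensor AMPK. Sunitinib blocks several receptor kinases, including those for PDGF, VEGF and stem cell factor. Signals from such receptors run through RAS, RAF and the kinases MEK and ERK to the nucleus. There, immediate early genes such as EGR1 are induced within minutes. Dual specificity phosphatases such as DUSP1 are induced with them and dephosphorylate MAP kinases. IL6 is a secreted cytokine whose gene is controlled by NF-kB, AP-1 and C/EBP factors.

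The promoters of 3 genes that were lower in the combination, and of 1 that was higher, are shown because these genes are described below. The higher one, ARRDC4, was dim with dihydroberberine, and the floor bounds it at only 1.13-fold higher. Each sequence is the RefSeq window from 250 bases before to 50 bases after the gene start in GRCh38.p14, written 5′ to 3′ on the gene's strand. Capitals mark matches, on either strand, to the CArG box (the site of serum response factor), the CRE core TGACG (reverse CGTCA) and the E-box CACGTG. They also mark AP-1 sites, spelled TGANTCA. In the DUSP1 window neighbouring matches overlap in the runs TGACGTCA and CGTCACGTG. A match is a description of letters and not a measured binding site.
EGR1 promoter, chr5:138465229-138465528, plus strand: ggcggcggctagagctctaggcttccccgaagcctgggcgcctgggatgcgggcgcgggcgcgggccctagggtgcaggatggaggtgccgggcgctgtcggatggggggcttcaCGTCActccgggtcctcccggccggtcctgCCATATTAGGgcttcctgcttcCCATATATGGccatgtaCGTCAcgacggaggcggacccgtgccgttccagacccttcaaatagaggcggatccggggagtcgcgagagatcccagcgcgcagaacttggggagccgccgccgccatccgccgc
DUSP1 promoter, chr5:172771146-172771445, minus strand: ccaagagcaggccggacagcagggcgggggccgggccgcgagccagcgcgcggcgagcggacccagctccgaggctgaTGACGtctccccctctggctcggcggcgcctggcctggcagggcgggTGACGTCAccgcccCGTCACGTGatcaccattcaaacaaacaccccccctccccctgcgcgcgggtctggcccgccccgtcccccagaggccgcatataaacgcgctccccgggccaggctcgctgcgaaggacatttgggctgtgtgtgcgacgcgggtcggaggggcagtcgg
IL6 promoter, chr7:22726950-22727249, plus strand: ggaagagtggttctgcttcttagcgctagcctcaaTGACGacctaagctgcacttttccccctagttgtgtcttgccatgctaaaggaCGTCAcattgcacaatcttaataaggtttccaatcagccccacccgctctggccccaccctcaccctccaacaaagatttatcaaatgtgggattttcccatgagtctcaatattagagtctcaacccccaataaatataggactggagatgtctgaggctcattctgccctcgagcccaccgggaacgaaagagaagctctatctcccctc
ARRDC4 promoter, chr15:97960453-97960752, plus strand: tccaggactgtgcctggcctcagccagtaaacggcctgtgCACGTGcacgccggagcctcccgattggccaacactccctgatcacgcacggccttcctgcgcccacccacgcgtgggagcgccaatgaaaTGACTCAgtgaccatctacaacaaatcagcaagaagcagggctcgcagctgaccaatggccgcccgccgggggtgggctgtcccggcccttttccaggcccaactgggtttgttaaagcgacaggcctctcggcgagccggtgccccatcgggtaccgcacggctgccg

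The 4 arrays had median log2 signals of 6.73 to 6.76 over gene probe sets, and the compared arrays correlated with r = 0.989 across gene probe sets. Some control readings differed between these 2 arrays, and in each of those given here the dihydroberberine array was the highest or lowest of the 4. The Alu control read 14.42 with dihydroberberine, 14.82 in untreated cells and 14.86 in both sunitinib and combination cells. For the 18S rRNA controls the mean was 13.73 with dihydroberberine and 14.12 to 14.36 on the other arrays. The Alu control was 0.44 higher on the log2 scale in the combination than with dihydroberberine, and the mean of the 18S rRNA controls was 0.41 higher. The median of background probes holding 15 to 25 G or C bases was 0.20 lower in the combination (6.95 against 7.15), so levels just above the floor may be background. This median was 6.70 in untreated and 6.99 in sunitinib cells. The gap between 3′ and 5′ ACTB probe sets was 0.82 in the combination, 0.63 with dihydroberberine, 0.91 in untreated and 0.85 in sunitinib cells. These readings were not used to correct any value, and their part in the results was not tested. Of 15 measured markers of A549 or lung epithelial cells, 10 lay at or above the floor on every array, with summed log2 signals from 138 to 140. The keratins KRT8 and KRT18 were among the brightest, while the epithelial markers CDH1 and EPCAM lay under the floor on every array. Of 13 markers of blood, endothelial and stromal cells, 3 to 5 lay at or above the floor, with sums of 80.0 for the combination, 83.8 for dihydroberberine, 81.4 for sunitinib and 85.8 for untreated cells. In RNA from whole cultures, fewer cells of a type and less RNA per cell cannot be told apart.

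Past 2-fold, more genes were higher than lower in the combination against dihydroberberine. A total of 302 genes were at least 2-fold higher in the combination (2.80% of the genes kept), and 47 were at least 2-fold lower (0.436%). The lower genes included EGR1, IL6, the matricellular gene CCN1, the stress gene GADD45B, the collagenase MMP1 and 3 MAP kinase phosphatases. The higher genes included the cullin CUL3, the methionine adenosyltransferase MAT2A, the histone methyltransferase SETD1B and the deubiquitinase USP7. Over all genes kept the median difference was -0.01 on the log2 scale, with quartiles of -0.20 and 0.28. Differences above 0 were 49.2% of genes and those below 0 were 50.8%. Centring each array on the median of the genes kept, which moves this median to -0.13, gave 208 higher and 73 lower genes. The share of higher genes among those past 2-fold was 86.5% as deposited and 74.0% after centring. It was also 74.0% when a gene's probe sets were averaged (97 higher and 34 lower of 8955 genes kept). Such means take in all probe sets of a gene. Those under the floor on both compared arrays are included, while probe set ranges given here leave them out. A mean can therefore lie outside its range. For sunitinib against untreated cells, which leaves out the dihydroberberine array, the share of higher genes was 30.3% (23 higher and 53 lower). The 302 higher genes had median signals of 8.80 in untreated cells, 7.76 with dihydroberberine, 8.88 with sunitinib and 9.05 in the combination. Those of the 47 lower genes were 8.64, 9.53, 8.26 and 8.31 in the same order. Both sets were picked on the dihydroberberine and combination arrays.

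**Figure D1:**
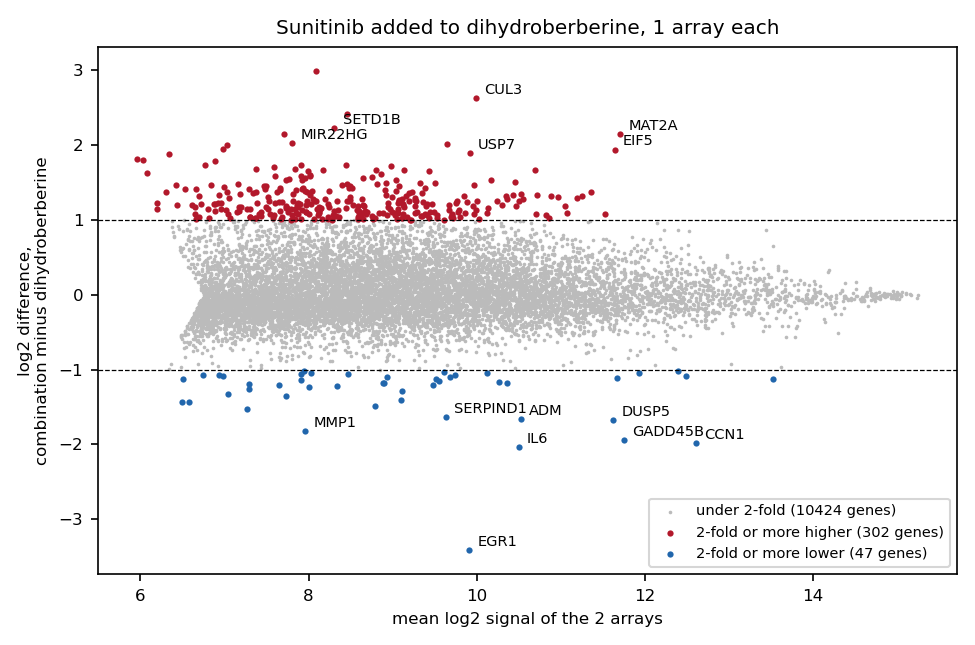
Each point is a gene, with its mean log2 signal over the 2 compared arrays on the x axis and the combination minus dihydroberberine difference (log2) on the y axis; lines mark 2-fold. The 302 higher genes are spread over dim and middle signals with fewer at the highest, and EGR1 at -3.41 is the lowest point.

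Most of the immediate early genes kept were lower in the combination, and EGR1 had the lowest difference of all genes. EGR1, a zinc finger transcription factor induced by ERK, read 6.68 in untreated cells, 11.62 with dihydroberberine, 6.23 with sunitinib and 8.20 in the combination. The dihydroberberine array stood far above the others, and the combination lay between it and the other arrays. Untreated and sunitinib cells lay under the floor for EGR1. Its difference was -3.41, a 10.7-fold lower signal, and its 6 probe sets gave -3.94 to -1.03. Its promoter, shown above, holds both CArG boxes of the printed set. JUN, a subunit of AP-1, was 2.27-fold lower by the brightest of its probe sets (9.47 to 8.29), but its probe sets ran from -1.29 to 0.04. IER3, a stress-inducible early gene, went from 12.23 to 11.11, or 2.17-fold lower. FOSL1, an AP-1 subunit, read 7.79, 10.24, 8.17 and 9.31 in untreated, dihydroberberine, sunitinib and combination cells, which is a difference of -0.93 and under 2-fold. The nuclear receptor NR4A2, which is not on the list counted below, was at least 2.20-fold lower, with the combination under the floor. IER5, another early response gene, went the other way, from 8.67 to 10.10, or 2.69-fold higher. Of 13 immediate early genes kept, 9 were below 0, 3 were past 2-fold lower and 1 past 2-fold higher. Over all genes kept the shares were 50.8% below 0, 0.436% past 2-fold lower and 2.80% past 2-fold higher. The list's median was -0.30, against -0.01 over all genes. JUNB (-0.13), FOSB (0.11) and MYC (0.06) differed little.

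The phosphatases that ERK induces were lower together with EGR1. DUSP5, a nuclear phosphatase of ERK, read 9.66 in untreated cells, 12.46 with dihydroberberine, 9.02 with sunitinib and 10.78 in the combination, which is 3.20-fold lower than dihydroberberine. DUSP1, which acts on p38, JNK and ERK, read 12.20, 14.08, 11.73 and 12.96 in the same order and was 2.18-fold lower. DUSP6, a cytoplasmic phosphatase of ERK, read 11.56, 13.03, 11.01 and 11.94 and was 2.12-fold lower. In all 3 genes the sunitinib array was lowest, the dihydroberberine array highest, and the combination remained above untreated cells. Of 10 MAP kinase phosphatases kept, 8 were below 0 (against 50.8% of all genes) and 3 past 2-fold lower (against 0.436%). Their median was -0.28 (-0.55 with means of probe sets and -1.08 with the 75th percentile floor). Other feedback genes of the pathway were divided. PHLDA1 was 2.02-fold lower, though 1 of its probe sets was at 0.36. SPRED1, an inhibitor of RAS to ERK signalling, was 2.15-fold higher, from 8.74 to 9.84, and just under 2-fold (0.99) with centred arrays. SPRED2 was at 0.83, with 0.81 by its other probe set above the floor, and 0.50 by the mean with dimmer ones. CCND1, the cyclin of early G1, read 10.66, 10.04, 11.16 and 11.38 and was 2.52-fold higher, or 0.98 on the log2 scale as the mean of its probe sets. The median over the 11 ERK output and feedback genes kept was 0.08 (-0.11 with means of probe sets).

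The receptors that sunitinib inhibits were mostly under the floor. Of 9 listed target receptors 3 were kept, and FLT4 was at -0.25 and KDR at -0.01. PDGFRB was at least 1.15-fold lower, with the combination under the floor. Signals of these genes were 8.19 or less on the compared arrays. Of 13 other receptor tyrosine kinases kept, none passed 2-fold. The insulin-like growth factor receptor IGF1R was at 0.92 (0.47 as the mean of its probe sets), the HGF receptor MET at 0.68 (0.33) and AXL at -0.37. The insulin receptor INSR was at least 1.81-fold higher by its brightest probe set, with dihydroberberine under the floor, and its other probe set gave 0.34. Among their ligands NRG1, a ligand of ERBB receptors, read 9.80 in untreated cells, 9.53 with dihydroberberine, 8.42 with sunitinib and 8.04 in the combination. Both arrays with sunitinib lay below both without it, and the difference was -1.49, or 2.81-fold lower. Averaged over all its probe sets, 5 of them above the floor, it was -0.68.

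**Figure D2:**
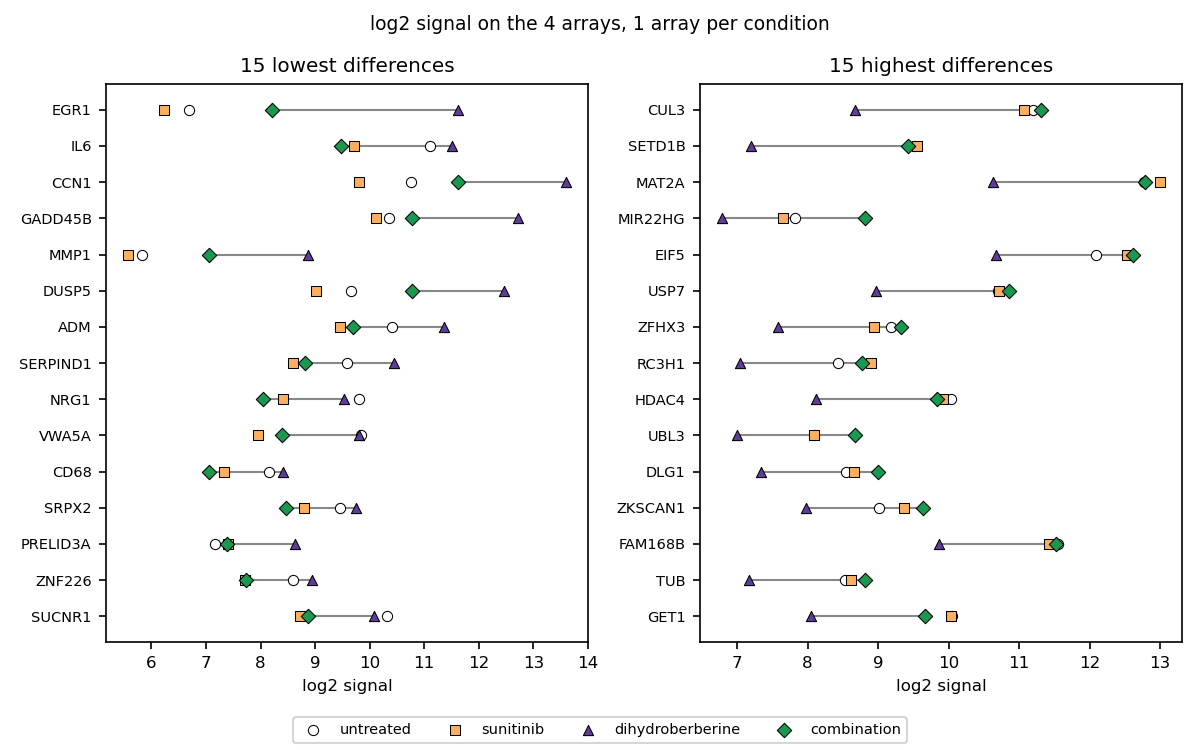
Points give the log2 signal of the 15 lowest and 15 highest named genes on the 4 arrays, 1 array per condition, with the genes in rows. In the 15 higher genes the dihydroberberine point is the lowest of the 4, as for CUL3 at 8.68, while EGR1, CCN1 and GADD45B have it highest.

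Of the cytokine genes IL6 alone was past 2-fold lower in the combination. IL6 read 11.10 in untreated cells, 11.51 with dihydroberberine, 9.70 with sunitinib and 9.48 in the combination. The difference of -2.03 was a 4.09-fold lower signal, both arrays with sunitinib lay below both without it, and the second probe set gave -0.46 (mean -1.25). The neutrophil attractants CXCL3 (-0.87) and CXCL2 (-0.74) and the soluble pattern receptor PTX3 (-0.62) stayed under 2-fold. CXCL8, the interleukin 8 gene, read 12.83, 14.55, 11.49 and 14.04. It was 2.52-fold lower with sunitinib than in untreated cells, and its difference in the combination was -0.50. Of 11 inflammatory cytokines and chemokines kept, 9 were below 0, where 50.8% of all genes were, with a median of -0.50 (-0.37 with no filter on dim genes). The NF-kB list had 8 of 10 below 0, with a median of -0.24 and the inhibitor TNFAIP3 lowest at -0.65. Of 5 prostaglandin synthesis genes, 4 were below 0, with a median of -0.43 (-0.08 with no filter) and PTGES, the inducible prostaglandin E synthase, at -0.77. CD274, which encodes the immune checkpoint ligand PD-L1, was dim. It read 7.71 with dihydroberberine and lay under the floor in the combination, which bounds it as at least 1.94-fold lower. CD68, a macrophage marker that other cells also express in lysosomes, read 8.16, 8.42, 7.33 and 7.06. It was 2.56-fold lower, the lowest difference of the 4 markers of other cell types that were kept. The macrophage marker CD14 read 8.82 in untreated cells, 6.75 with dihydroberberine, 6.27 with sunitinib and 5.76 in the combination. It was thus under the floor on both compared arrays, but only just so with dihydroberberine. The leukocyte marker PTPRC lay under the floor on all 4.

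Secreted matrix genes and stress genes were among the lowest values. CCN1, a matricellular protein and target of YAP, read 10.76 in untreated cells, 13.60 with dihydroberberine, 9.81 with sunitinib and 11.62 in the combination, 3.96-fold lower. GADD45B, a stress sensor upstream of p38, read 10.35, 12.72, 10.11 and 10.78 and was 3.84-fold lower. MMP1, a collagenase and AP-1 target, read 5.83, 8.87, 5.57 and 7.05 and was 3.53-fold lower. In these 3 genes dihydroberberine stood above every other array, and only for MMP1 were untreated and sunitinib cells under the floor. PLAT, tissue plasminogen activator, was 2.18-fold lower (10.07 to 8.95), and the urokinase receptor PLAUR was at -0.87. DKK1, a secreted WNT inhibitor, was at least 1.46-fold lower with the combination under the floor. SRPX2, a secreted ligand of the urokinase receptor, was 2.43-fold lower, from 9.76 to 8.47. DDIT3, a transcription factor of the stress response also called CHOP, was 2.15-fold lower (9.48 to 8.38). In the matrix and mesenchymal list as a whole, 8 of 13 genes were below 0, against 50.8% of all genes. The list's median was -0.08 (-0.29 with means of probe sets). SNAI2, a repressor of epithelial genes, was 2.16-fold higher (6.87 to 7.98), and just under 2-fold (0.99) with centred arrays. Of 11 YAP targets and Hippo genes, CCN1 was past 2-fold lower and the coactivator WWTR1 past 2-fold higher, with 1 WWTR1 probe set at -0.70. The other well known target, CCN2, was at -0.57. The median of the list was 0.55, and 0.18 with means of probe sets.

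In a further set of lower genes both arrays with sunitinib lay below both without it. ADM, a hypoxia-inducible peptide hormone, read 10.41 in untreated cells, 11.36 with dihydroberberine, 9.45 with sunitinib and 9.69 in the combination, 3.17-fold lower. SERPIND1, the thrombin inhibitor heparin cofactor II, read 9.58, 10.45, 8.59 and 8.82 and was 3.10-fold lower. VWA5A, a gene with a von Willebrand factor domain, read 9.84, 9.80, 7.96 and 8.39 and was 2.65-fold lower, but the mean of all its probe sets gave -0.81, under 2-fold. Untreated and dihydroberberine cells lay close together for VWA5A, while dihydroberberine was the higher of them for ADM and SERPIND1. SUCNR1, the receptor for succinate, resembled VWA5A, with 10.32, 10.08, 8.72 and 8.87, a 2.32-fold lower signal. ANGPTL4, an inhibitor of lipoprotein lipase, was 2.23-fold lower (10.13 to 8.97), LXN, a carboxypeptidase inhibitor, 2.14-fold lower (10.23 to 9.13), and RAB38, a GTPase of lysosome-related organelles, at least 2.25-fold lower. CPS1, the first enzyme of the urea cycle, departed from this order, with 13.18, 12.45, 12.58 and 11.40, a 2.06-fold lower signal in the combination. Of 22 hypoxia and glycolysis genes kept, 18 were below 0 (against 50.8% of all genes). Past 2-fold lower were 2 (against 0.436%), ADM and ANGPTL4, but the median was small at -0.10 and VEGFA was at 0.72.

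Histone genes were looked at after their values were seen. Messenger RNAs of replication-dependent histones end in a stem loop and mostly lack a poly(A) tail, and the labelling kit primes on poly(A). Of 18 kept, 16 were below 0 (against 50.8% of all genes), with a median of -0.56, and 5 were past 2-fold lower (against 0.436%). H1-3, a linker histone, was at least 2.42-fold lower, H2BC9 at least 1.38-fold and H4C5 at least 1.24-fold, with the combination under the floor in each. H2BC5 was 2.02-fold lower (8.45 to 7.44) and H4C12 2.06-fold lower (8.55 to 7.50). These genes have near-identical copies, so the probe sets may not separate them. The DNA replication genes kept (31) had a median of -0.05 and the mitosis genes (27) a median of -0.13, with no member past 2-fold in either list.

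Some of the higher genes belong to ubiquitin pathways, and they are described here as single genes. CUL3, the scaffold of a cullin-RING ubiquitin ligase, read 11.20 in untreated cells, 8.68 with dihydroberberine, 11.07 with sunitinib and 11.31 in the combination. The dihydroberberine array stood alone below the others, and the difference of 2.63 was a 6.20-fold higher signal, with 3 probe sets from 2.20 to 2.81. USP7, a deubiquitinase of MDM2 and p53, read 10.71, 8.97, 10.72 and 10.86 and was 3.71-fold higher (1.16 on the log2 scale as the mean of its probe sets). UBL3, a membrane-anchored ubiquitin-like protein, read 8.09, 6.99, 8.08 and 8.67 and was 3.20-fold higher. CUL5 was 2.39-fold higher (8.45 to 9.71), and CUL3 and CUL5 were the only members of the cullin list past 2-fold. Among the 14 cullin and adaptor genes kept 8 were above 0, where 49.2% of all genes were, and their median was 0.10. Of 40 USP genes, a family chosen after its values were seen, 31 were above 0 (against 49.2% of all genes). Past 2-fold higher were 4 (against 2.80%), and the median was 0.34. None of 21 proteasome genes passed 2-fold, 9 were above 0, and their median was -0.02.

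Some genes that act on chromatin, and 1 that supplies methyl groups, were past 2-fold higher, and they are described here as single genes. SETD1B, a histone H3 lysine methyltransferase, read 9.51 in untreated cells, 7.19 with dihydroberberine, 9.54 with sunitinib and 9.42 in the combination, 4.68-fold higher. MAT2A, which makes the methyl donor S-adenosylmethionine, read 12.77, 10.64, 13.00 and 12.78 and was 4.42-fold higher, with 6 probe sets from 1.19 to 2.15. HDAC4, a class IIa histone deacetylase, read 10.03, 8.12, 9.92 and 9.84 and was 3.30-fold higher. For all 3 the combination lay near untreated cells, and dihydroberberine was lowest. The acetyltransferase CREBBP was 2.14-fold higher (9.32 to 10.41), and the methylcytosine dioxygenase TET3 at least 2.41-fold. Of 23 histone methyltransferases and demethylases kept, 16 were above 0 (against 49.2% of all genes) with a median of 0.23. SETD1B was the only one past 2-fold. ZFHX3, a large homeobox transcription factor, was 3.34-fold higher (7.58 to 9.32). Its 2 probe sets above the floor gave 1.63 and 1.74 on the log2 scale, and the mean with dimmer ones was 0.73.

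Genes that act on RNA were also among the higher ones. EIF5, a GTPase-activating factor of translation initiation, read 12.09 in untreated cells, 10.67 with dihydroberberine, 12.53 with sunitinib and 12.61 in the combination, 3.84-fold higher. RC3H1, which encodes Roquin-1, an RNA-binding repressor of inflammatory messenger RNAs, read 8.43, 7.04, 8.90 and 8.77 and was 3.32-fold higher. Its 2 probe sets above the floor gave 1.33 and 1.73 on the log2 scale, and the mean with dimmer ones was 1.01. MIR22HG, the host transcript of miR-22, read 7.82, 6.79, 7.65 and 8.82 and was 4.08-fold higher. The dihydroberberine array was lowest in each. The combination was highest for MIR22HG and, by little, for EIF5. Among splicing factors SRSF1 was 2.59-fold higher (10.68 to 12.05), SRSF6 2.38-fold (9.37 to 10.62) and SRSF5 2.04-fold (10.35 to 11.38), which was 0.78 on the log2 scale by the mean of its probe sets. SRSF8 was at least 2.42-fold higher. Of 11 SRSF genes, picked after their values were seen, 10 were above 0 (against 49.2% of all genes), with a median of 0.42. The 22 listed splicing factors had a median of 0.09. None of 67 cytosolic ribosomal protein genes passed 2-fold, and their median was -0.00. The highest positive difference was that of ZC3HAV1, an antiviral zinc finger RNA-binding protein, named after its value was seen. It was at least 7.13-fold higher by its brightest probe set, with 6.59 on the dihydroberberine array, under the floor, and 9.59 in the combination, but its 4 probe sets ran from -0.50 to 3.41.

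Other high values came from genes of mixed roles. TRIB1, a pseudokinase that brings C/EBP factors to a ubiquitin ligase, was at least 4.08-fold higher by its brightest probe set (mean 1.37). DLG1, a scaffold of cell polarity, was 3.17-fold higher, and GET1, an insertion factor for tail-anchored proteins, 3.06-fold (8.05 to 9.66). The 3 GET1 probe sets above the floor gave 1.61 to 1.79 on the log2 scale, and the mean with dimmer ones was 0.79. The zinc finger gene ZKSCAN1 was 3.17-fold higher (7.97 to 9.64), FAM168B 3.16-fold (9.86 to 11.52, mean of probe sets 1.05) and TUB 3.15-fold (7.16 to 8.82). All of these were lowest with dihydroberberine. FAM217B was at least 3.22-fold, MTURN at least 2.76-fold, AUTS2 at least 2.72-fold and GK5 at least 2.47-fold higher, with dihydroberberine under the floor. For MTURN this holds for the brightest probe set, and its other probe set gave 0.57 on the log2 scale. Among p53 targets, 15 of 19 were above 0 (against 49.2% of all genes), with a median of 0.34. MDM2, the ubiquitin ligase of p53, was 2.32-fold higher (7.42 to 8.63), and ZMAT3, an RNA-binding p53 target, 2.65-fold (6.78 to 8.19). SESN1 (0.95), PHLDA3 (0.89) and FAS (0.79) stayed under 2-fold, and CDKN1A, the CDK inhibitor p21, was at 0.45.

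TXNIP and ARRDC4, arrestin-like genes that restrain glucose uptake and are induced by MLXIP (MondoA) through E-boxes, read below untreated cells in the combination. TXNIP read 11.49 in untreated cells, 7.06 with dihydroberberine, 12.14 with sunitinib and 8.30 in the combination, 2.36-fold higher than dihydroberberine. Averaged over all its probe sets, 4 of them above the floor, its difference was 0.70. ARRDC4 read 7.82, 5.12, 8.62 and 6.93, and since dihydroberberine lay under the floor it was at least 1.13-fold higher. Both arrays with dihydroberberine lay below both without it for these genes. MLXIP itself read 9.86, 8.07, 9.65 and 9.55 and was 2.78-fold higher. Its 2 probe sets above the floor gave 1.48 and 1.83 on the log2 scale, and the mean with dimmer ones was 0.72. The related ARRDC3 was at -0.74. In the AMPK list 7 of 11 genes were above 0 (against 49.2% of all genes), with a median of 0.42 (0.09 with means of probe sets). No member was past 2-fold, with SIK2 at 0.91 and the catalytic subunit gene PRKAA1 at -0.88. Probe sets of SIK2 and of PRKAA1 disagreed in sign. HMOX1, heme oxygenase and an NRF2 target, was 2.08-fold higher (8.22 to 9.28), but under 2-fold with means of probe sets (0.74), with quantile normalization (0.97) and with centring (0.93). The NRF2 list had a median of 0.13, and 0.27 with means of probe sets.

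**Figure D3:**
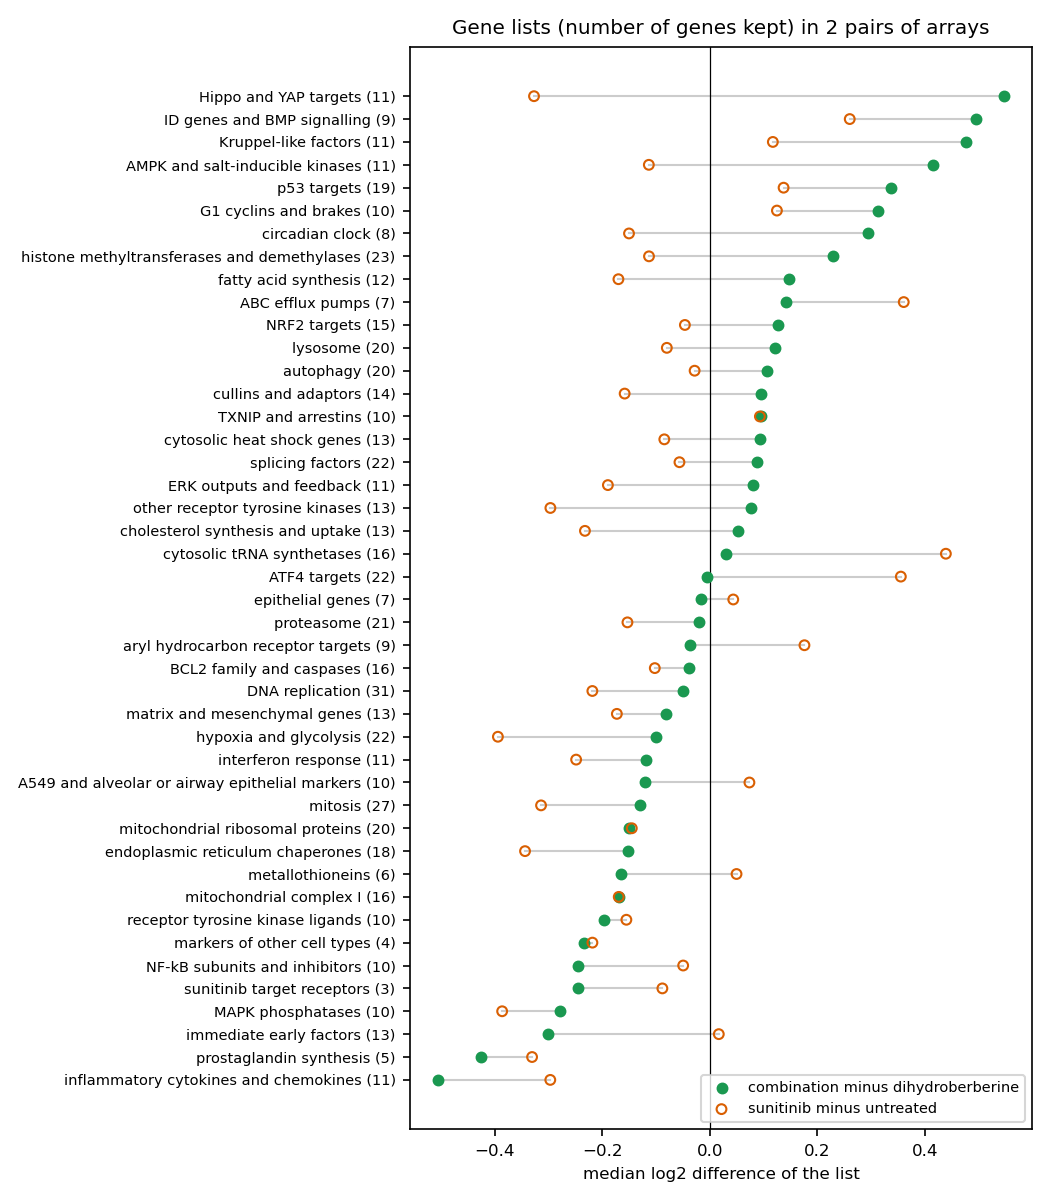
Rows are gene lists, with the median log2 difference of the members kept on the x axis, for the combination minus dihydroberberine and for sunitinib minus untreated, which share no array. The inflammatory list lies at -0.50 and -0.30, and the list of Hippo and YAP targets at 0.55 and -0.33. With means of probe sets the value of 0.55 was 0.18.

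The drug was also added in a pair of arrays that has no array in common with this comparison, sunitinib against untreated cells. Past 2-fold, sunitinib alone gave 23 higher genes (0.213%) and 53 lower genes (0.492%) among the same 10773. Of the 47 genes lower in the combination, 43 were below 0 with sunitinib alone (91.5%, against 55.7% of all genes), with a median of -0.68. Of these, 12 were past 2-fold lower in both pairs, which is 25.5% of the 47 and 22.6% of the 53. They were ANGPTL4, C1orf54, CD274, IL6, LXN, LY6K, MYPN, NRG1, RAB38, SUCNR1, TEX19 and VWA5A. Of the 302 higher genes, 180 were above 0 with sunitinib alone (59.6%, against 44.2% of all genes), with a median of 0.09. Past 2-fold higher in both were 5 genes, BEX2, ID2, MEGF6, NUPR1 and SHISA2, which is 1.66% of the 302 and 21.7% of the 23. When probe sets were averaged, 6 lower and 3 higher genes were shared. Of the 5 lowest named genes in the combination, EGR1 was at -0.45 with sunitinib alone, IL6 at -1.40, CCN1 at -0.94, GADD45B at -0.23 and MMP1 at -0.25. EGR1 (6.68 and 6.23) and MMP1 (5.83 and 5.57) lay under the floor in untreated and sunitinib cells, so their values here compare dim signals. Of the higher genes CUL3 was at -0.13, SETD1B at 0.03 and USP7 at 0.01.

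**Figure D4:**
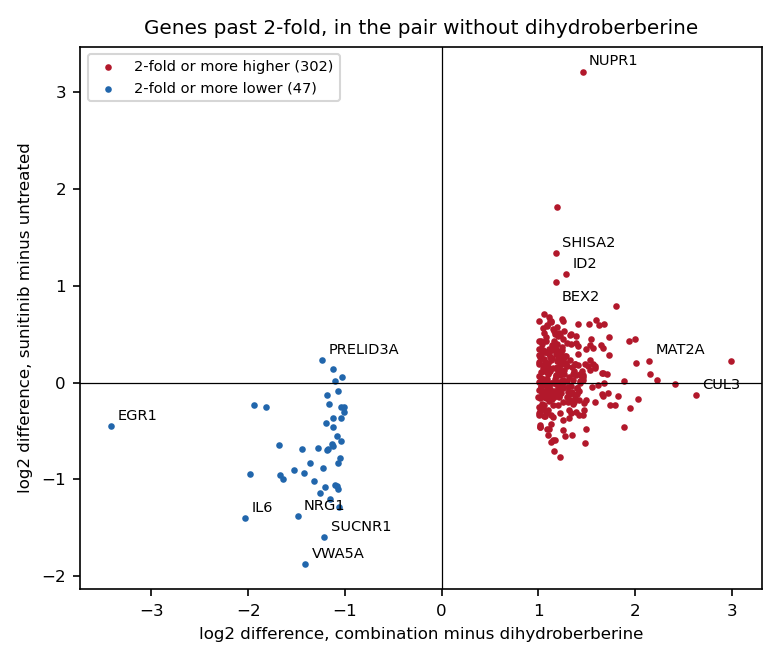
Each point is 1 of the 302 higher (red) or 47 lower (blue) genes, with combination minus dihydroberberine (log2) on the x axis and sunitinib minus untreated (log2) on the y axis; the pairs share no array. VWA5A, SUCNR1 and IL6 are low on both axes and NUPR1 is high on both, while CUL3 and EGR1 lie at -0.13 and -0.45 on the y axis. EGR1 was under the floor in untreated and sunitinib cells.

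NUPR1, a stress-induced transcription cofactor and ATF4 target, read 6.67 in untreated cells, 8.35 with dihydroberberine, 9.89 with sunitinib and 9.81 in the combination, 2.75-fold higher than dihydroberberine. ID2, which holds basic helix-loop-helix factors off DNA, read 10.32, 9.91, 11.44 and 11.19 and was 2.44-fold higher. SHISA2, of a family that holds WNT and FGF receptors in the endoplasmic reticulum, read 7.37, 8.54, 8.71 and 9.72 and was 2.26-fold higher. This was its only probe set above the floor, and the mean with dimmer ones was 0.58 on the log2 scale. Both arrays with sunitinib lay above both without it in each of the 3. BEX2 read 7.57, 8.68, 8.61 and 9.86, so either drug alone read nearly the same there, and it was 2.27-fold higher. MEGF6 was 2.29-fold higher (8.52 to 9.72), with probe sets at -0.05 and 1.20. ID1 was at 0.86 and ID3 at 0.35, and the BMP receptor BMPR2 was 2.39-fold higher (7.35 to 8.61) by its brightest probe set and 0.56 on the log2 scale by the mean. SMAD6, an inhibitor of BMP signalling, was at 2.41, with probe sets from -0.10 to 2.41. The secreted BMP modulator BMPER was lower, at -0.83. Of 9 ID and BMP genes kept, 7 were above 0 (against 49.2% of all genes) and 3 past 2-fold higher (against 2.80%). Their median was 0.50 (0.35 with no filter), and 0.26 with sunitinib alone. The ATF4 targets had a median of -0.00 in the combination and 0.36 with sunitinib alone. The tRNA synthetases, which ATF4 also induces, had 0.03 and 0.44. Krüppel-like factors had 9 of 11 genes above 0 (against 49.2% of all genes), led by KLF13, which was 2.33-fold higher. Their medians were 0.48 in the combination (0.20 with means of probe sets) and 0.12 with sunitinib alone.

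Many lists had small medians. Medians lay at 0.05 for cholesterol synthesis (0.20 with the 75th percentile floor), 0.15 for fatty acid synthesis, 0.11 for autophagy, 0.12 for the lysosome and -0.04 for the BCL2 family and caspases (0.16 with that floor). Within these, SCD, the stearoyl-CoA desaturase, was at 0.87, and XIAP, an inhibitor of caspases, was 2.39-fold higher (9.13 to 10.39) by its brightest probe set and 0.82 on the log2 scale by the mean. The 16 complex I genes on the list (median -0.17), 20 mitochondrial ribosomal proteins (-0.15) and 18 endoplasmic reticulum chaperones (-0.15) held no member past 2-fold. NDUFC2, a complex I subunit that was not on the list, was 2.50-fold higher (10.58 to 11.91) and is named here after its value was seen. CALR, the chaperone calreticulin, was at -0.69. The co-chaperone DNAJA1 was the only cytosolic heat shock gene past 2-fold, 2.28-fold higher (10.45 to 11.64), or 0.96 on the log2 scale by the mean of its probe sets.

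By their medians the higher genes were longer than the genes kept as a whole and the lower genes shorter. The span from gene start to end had a median of 55.9 kb for the 302 higher genes, 10.2 kb for the 47 lower genes and 29.0 kb over all genes kept with a span. In 5 equal groups by span, from shortest to longest, 1.53%, 1.76%, 1.95%, 3.95% and 4.83% of genes were past 2-fold higher. Past 2-fold lower were 1.07%, 0.46%, 0.28%, 0.05% and 0.32%. The median difference went from -0.11 in the shortest group to 0.14 in the longest. With sunitinib against untreated cells the same medians were -0.06 and -0.01. Promoter GC content had a median of 69.1% for the 242 higher genes with a RefSeq window and 65.0% over all genes kept. For the lower genes 74.5% had a window, which is under 80%, so that check is void for them. In 5 equal groups by mean signal, from dimmest to brightest, 2.64%, 3.94%, 3.67%, 2.83% and 0.93% of genes were past 2-fold higher.

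**Figure D5:**
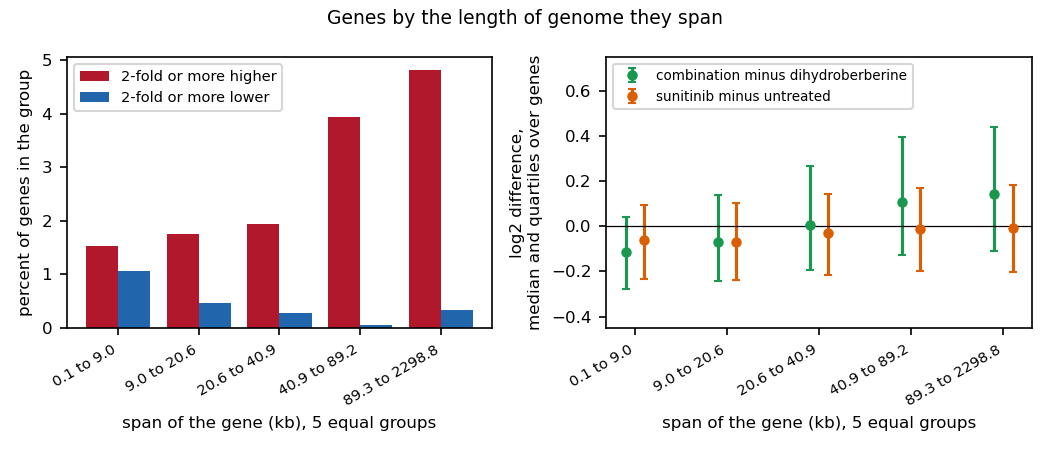
The genes kept, in 5 equal groups by genomic span (kb), are on the x axes, with the percent of genes past 2-fold and the median log2 difference with its quartiles on the y axes. The share past 2-fold higher is 1.53% in the shortest group and 4.83% in the longest.

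Motif matches were counted in RefSeq windows of 300 bases on both strands. Of the 43 windows of lower genes, 14.0% held AP-1, against 5.13% of the windows of all genes kept and 7.71% of all 35116 windows. Only 74.5% of the lower genes had a window, so these shares describe those windows and not the lower genes as a whole. The AP-1 matches were in CD68, CPT1C, DDIT3, SRPX2 and ZNF226, so EGR1, DUSP1 and IL6 were not among them. The CArG box was in 2.33% of these windows, that of EGR1, against 1.08% and 1.29%. The CRE core was in 30.2%, against 31.8% and 24.6%. Of the windows of higher genes 12.0% held the E-box, against 9.41% of those of all genes kept and 7.26% of all windows. The ATF4 element TGATGNAA was in 4.65% of the windows of lower genes, all of them windows of C1orf54, and 2.13% of those of higher genes, against 2.04% and 3.62%. The SREBP element TCACNCCAC was in none and 0.27%, against 1.01% and 1.13%. A window counts once for each motif it holds, also where motifs overlap.

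Other probe sets of the same genes gave a reading that the choice of the brightest probe set did not use, on the same arrays. Of the 302 higher genes 194 had at least 1 more probe set above the floor, and the median of the others was 0.76, against 0.01 over all genes. In 164 genes the others were above 0 and in 59 they were past 2-fold. Over all 6264 genes with other probe sets these counts were 3197 and 123. Of the 47 lower genes 30 had more probe sets, with a median of -1.15, 29 below 0 and 18 past 2-fold. Over the same 6264 genes 3063 were below 0 and 41 past 2-fold lower. All probe sets were past 2-fold in 46 higher and 16 lower genes. In 54 higher and 10 lower genes 1 of the 2 arrays lay under the floor. The median SD between probe sets of a gene was 0.13 on the log2 scale, which does not measure the error between cultures.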

How the data were processed

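RNA from A549 cells, 1 array per condition, was labelled with biotin by a 3′ IVT kit per the labels' protocols. The design text names an Agilent array and the label field Cy3, but probe set names and controls belong to an Affymetrix design, which was assumed. The authors deposited log2 probe set signals, a scale taken from their range. The submitters' processing notes name Affymetrix Expression Console. Its version, the summarization and any scaling between arrays were likewise not given in the sources used here.

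Of 49395 probe sets 49293 measured genes. A platform annotation gave 1 symbol for 44988, several for 1832 and none for 2473, and 44961 matched RefSeq of GRCh38.p14. Differences of log2 values were counted at 2-fold. An array under the floor was raised to it, and the fold is then printed as a lower bound ("at least") for the brightest probe set. With 1 array per group there is no test. Members and the 44 gene lists were chosen with earlier results of these data known.

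The named genes are the 15 highest and 15 lowest with both arrays above the floor and 1 sign in all probe sets, 5 more per direction with 1 array under the floor, up to 4 per list, and up to 5 per direction past 2-fold in both pairs. Named after their values were seen were CPS1, CREBBP, CXCL8, DKK1, FAS, FOSB, ID3, JUN, JUNB, KRT18, LXN, MYC, PHLDA1, PLAT, PRKAA1, SIK2, SMAD6, SRSF8, TET3, VEGFA, WWTR1, ZC3HAV1, NDUFC2, 4 histone genes, and genes listed only by name. Alternatives were the mean of probe sets, other floors, quantile normalization and centring. Counting was tested on simulated data. Python 3.11.15, numpy 2.4.6 and pandas 2.3.3 were used.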

Additional observations from a re-analysis of the deposited data

Results flagged for a closer look

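The list of Hippo and YAP targets had a median difference of 0.55 when sunitinib was added to dihydroberberine and -0.33 when it was given alone, so the medians lay on opposite sides of 0. With means of probe sets the first median was 0.18. The list also holds pathway genes, among them WWTR1, past 2-fold higher but with 1 probe set at -0.70. The targets CCN1 (-1.985 and -0.94) and CCN2 (-0.57 and -0.66) were below 0 in both pairs. Of the 11 genes kept 7 were above 0 in the first pair (against 49.2% of all genes) and 2 in the second (against 44.2%). The difference between these pairs was not tested, as each holds 1 array per condition. Probe sets with no gene symbol or with several were not used for genes. Of 2019 of these with either array at or above the floor, 44 were past 2-fold higher and 10 past 2-fold lower in the combination. Among the 10773 genes kept, 302 (2.80%) were past 2-fold higher and 47 (0.436%) past 2-fold lower.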

How the results depend on the processing

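The 302 higher genes, of 10773 kept, became 97 of 8955 when probe sets were averaged. Under a floor at the 75th percentile they became 182 of 6366. For sunitinib minus untreated, an alternative chosen after seeing the data that leaves out the dihydroberberine array, the count was 23 of 10773. The 47 lower genes became 30 of 6366 under the 75th percentile floor and 73 of 10773 with centred arrays. That floor kept fewer genes, so its smaller counts of higher and of lower genes are not smaller shares of the genes kept. Genes shared with sunitinib alone became 3 (higher) and 6 (lower) with the mean of probe sets, and 7 lower with the 75th percentile floor or with values raised to the floor. The other settings stayed within 1.5 times, among them quantile normalization (255 higher, 56 lower). The circadian clock list went from 0.30 to -0.0024 with no filter, as more genes were counted. Of the other list medians under all settings 277 stayed close and 27 moved, 13 with the mean of probe sets, 7 with the 75th percentile floor, 6 with no filter and 1 with both arrays above the floor. With the mean of probe sets the medians of other receptor tyrosine kinases (-0.08) and of receptor ligands (0.10) changed sign, as did that of ERK outputs. Of 69 named genes past 2-fold, 20 fell under it in at least 1 setting, 15 of them with the mean of probe sets. No paired analysis was possible because each condition holds 1 array. Without replicates the error between cultures is unknown, and signals near the background probes limit the dim genes.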
